A study of Mus musculus with 24 samples.

Results

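The comparison described here asks whether the difference between colon and small intestine in Rspo3-expressing stromal cells is the same in endothelial cells and in fibroblasts. Rspo3+ cells were sorted from both tissues and split by CD31, the endothelial surface protein encoded by Pecam1, and 12 of the 24 RNA-seq libraries of the series belong to these Rspo3+ groups. They were chosen by their labels alone. The 4 groups, with 3 libraries each, were CD31+ Rspo3+ cells of the small intestine, CD31+ Rspo3+ cells of the colon, CD31- Rspo3+ cells of the small intestine and CD31- Rspo3+ cells of the colon. The other 12 libraries hold the CD31+ and CD31- cells of both tissues that lacked the reporter signal (Rspo3-). All mice were C57Bl6, 8 to 12 weeks old, and carried an Rspo3 GFP transgene reporter, so Rspo3+ means reporter-positive; the labels do not name the promoter of the transgene. Every group had been depleted of cells with Epcam, an epithelial surface protein, and with CD45, a leukocyte surface protein. No label states that libraries of 1 group are from different animals; the p-values therefore measure spread between libraries, which may be technical.

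R-spondin 3 is a secreted protein that amplifies Wnt signalling by keeping Wnt receptors at the cell surface, and in the gut wall it sustains the stem cells at the base of the crypts. It is made by fibroblasts around the crypts and by lymphatic endothelial cells, whose vessels drain fluid and absorbed fat from the mucosa. Colon and small intestine differ in their position along the gut axis, which fibroblasts keep as a pattern of Hox gene expression, and in function, since fat, retinoid and nutrient absorption belongs mainly to the small intestine. A tissue difference in stromal cells can therefore be held in common by all cells of the wall or belong to 1 lineage.

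A set of 3 log2 differences was estimated for each gene. The CD31+ difference is colonic minus small intestinal CD31+ Rspo3+ cells, the CD31- difference is the same in CD31- Rspo3+ cells, and the interaction is the CD31+ difference minus the CD31- difference. The CD31+ and CD31- differences share no library. Expression levels are given as CPM, counts scaled to a common library size after TMM correction, and the error of a log2 difference is its standard error. A range of CPM values joined by a dash is the lowest and highest of the 3 libraries of a group, and where 2 groups of a gate are given together the small intestine comes first. A gene was called where edgeR's quasi-likelihood F test, adjusted over all 19050 genes tested by the Benjamini-Hochberg method, gave an adjusted p under 0.05. A called gene of the interaction is placed as CD31+ only, CD31- only, opposite (both differences called, with opposite signs) or unequal (both called with the same sign). A gene is called shared where both differences were called with the same sign and the interaction was not called. Genes picked from the CD31+ only and CD31- only classes had to have no overlap between the tissues in that gate. Their separation there was thus fixed by the choice and is no further support. Of all genes tested, 23.9% had no overlap between tissues in CD31+ and 27.3% in CD31- Rspo3+ libraries. A difference that was not called is not shown to be 0, and in bulk libraries fewer cells of a type and less RNA per cell cannot be told apart. The libraries carry no strand information, so reads of overlapping genes cannot be told apart either. This touches Aff2, Anxa3, Bcl2, Bmyc, Cd34, Col15a1, Ddit3, Hmcn1, Hoxa11, Hoxc5, Hoxd10, Irf7, Mcam, Mest, Mylk, Nedd9, Pitx1, Ppp1r10, Rspo3, Slc2a1, Slco2b1, Tiparp and Tspo. A partner is a coding gene for Ddit3 (Mars), Hoxc5 (Hoxc10), Irf7 (Phrf1), Mest (Copg2) and Tspo (Mcat).

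The gates held their cell types. Pecam1 (ENSMUSG00000020717, chromosome 11, 106654217 to 106750628 on GRCm38) was at 435, 481 and 347 CPM in small intestinal and 629, 600.2 and 691 CPM in colonic CD31+ libraries. In CD31- libraries it was at 11.3, 19.6 and 13.7 CPM and 19.2, 12.9 and 43.9 CPM in the same order. Every CD31+ library lay above every CD31- library, and the tissue difference of Pecam1 was not called in either gate. The summed level of 16 pan-endothelial genes was 4834 to 5451 TPM (the unit scaled by transcript length) in CD31+ and 95.4 to 201 TPM in CD31- libraries. That of 14 pan-fibroblast genes was 1252 to 4705 TPM in CD31+ and 18987 to 55471 TPM in CD31- libraries. Within the CD31+ gate, 17 lymphatic genes summed to 29479 to 31541 TPM in the small intestine and 57936 to 69775 TPM in the colon. The tissue difference of that sum came from Ccl21a, a chemokine gene with near-identical copies and an uncertain level, at 17871 to 20014 TPM and 47080 to 60293 TPM; the other 16 genes summed to 10831 to 13301 TPM and 9482 to 11394 TPM, which overlap. Of the 17, 2 were higher and 1 lower in colonic CD31+ cells, against 2.83% and 3.52% of all genes tested, with a median of 0.11. Prox1, the master transcription factor of lymphatic fate, was at 81.0 to 151 TPM in small intestinal and 67.3 to 97.6 TPM in colonic CD31+ libraries, and the adhesion glycoprotein gene Mmrn1 at 4058 to 5298 TPM and 2566 to 3824 TPM. The sum of 20 blood endothelial genes was 1321 to 1817 TPM and 1630 to 2124 TPM. Lyve1, a hyaluronan receptor of lymphatic vessels, stood at 3309 to 4063 TPM in the CD31+ libraries of both tissues.

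Plasma cell RNA was in every library, and some libraries stood apart. The 8 plasma cell genes summed to 7955 to 14758 TPM in small intestinal CD31+ and 14041 to 20671 TPM in small intestinal CD31- libraries, above the pan-endothelial sum of the same CD31+ libraries. Colonic CD31+ libraries held 11476, 1713 and 11985 TPM of them, so library 2 was low. Colonic CD31- library 3 held 107180 TPM of the plasma cell genes, against 4653 and 6145 TPM in the other colonic CD31- libraries, 1232 TPM of 14 leukocyte genes against 60.5 and 89.6 TPM, and 1947 TPM of 15 pan-epithelial genes against 50.8 and 214 TPM. Its pan-fibroblast sum was 18987 TPM, against 40143 and 40170 TPM. The colonic CD31+ libraries had larger pan-fibroblast sums, 4705, 2578 and 2709 TPM, than the small intestinal ones, 1252, 1768 and 1281 TPM. Epithelial genes differed by tissue in both gates: 16 small intestinal epithelial genes summed to 459 to 1980 TPM in small intestinal and 41.3 to 350 TPM in colonic libraries. Library totals were 8462041 to 29214487 estimated counts with a median of 16930763, the mitochondrial share was 0.493 to 1.44%, and libraries of 1 group correlated at 0.918 to 0.981 across genes.

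**Figure D1:**
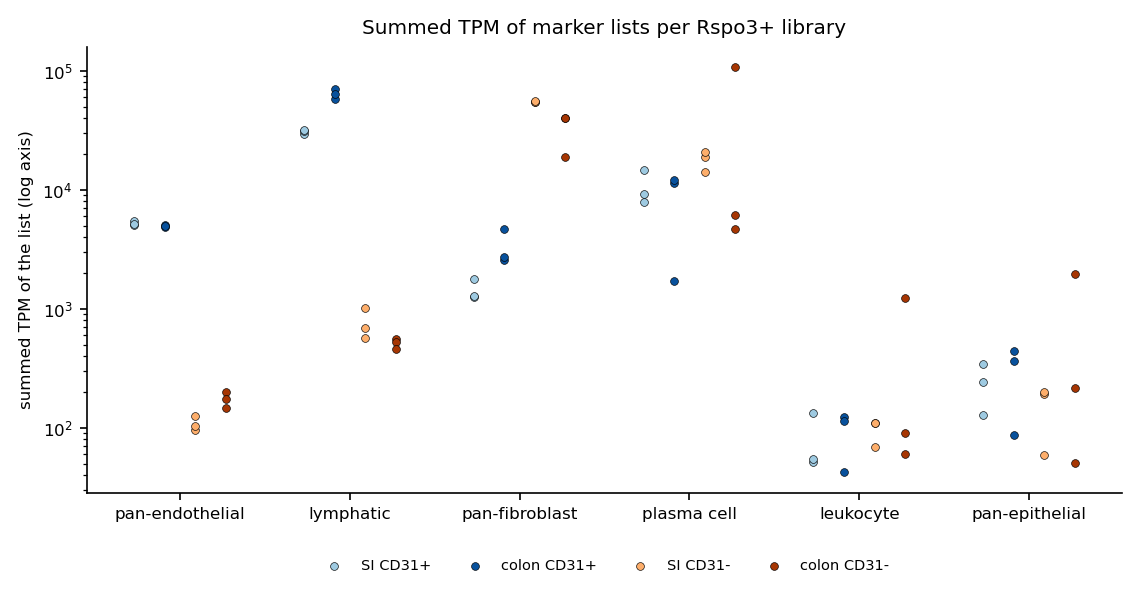
Summed TPM (log axis) of 6 marker lists in each of the 12 Rspo3+ libraries, by group; each point is 1 library. Pan-endothelial sums are 4834 to 5451 TPM in CD31+ libraries and 95.4 to 201 TPM in CD31- libraries, and colonic CD31- library 3 lies above the other libraries for plasma cell, leukocyte and pan-epithelial genes.

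The tissue difference was unlike in the 2 gates for 604 genes (3.17% of those tested), of which 274 (1.44%) were positive, meaning more colonic in CD31+ than in CD31- cells, and 330 (1.73%) were negative. The CD31+ difference was called for 1209 genes (6.35%), with 539 higher in colon (2.83%) and 670 lower (3.52%). The CD31- difference was called for 1337 genes (7.02%), with 689 higher (3.62%) and 648 lower (3.4%). Both were called for 343 genes, which is 28.4% of the CD31+ calls and 25.7% of the CD31- calls, and 302 of the 343 had the same sign. Over all genes tested the medians of the CD31+ difference, the CD31- difference and the interaction were 0.00, -0.01 and 0.02.

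Of the genes with a called interaction, 253 (1.33% of genes tested) were CD31+ only, with 104 higher and 149 lower in colon. Another 241 (1.27%) were CD31- only, with 125 higher and 116 lower. The differences were opposite for 41 genes (0.215%) and unequal for 14 (0.0735%). For 53 genes (0.278%) neither single difference was called, and for 2 (0.0105%) only the smaller one was. The shared genes numbered 288 (1.51%), 128 higher and 160 lower in colon, and in a strict subset of 58 (0.304%) the 95% interval of the interaction also lay within -1 to 1. A further 1364 genes could be placed in no class: 612 had only the CD31+ and 752 only the CD31- difference called, without a called interaction. Of 16 small intestinal and 12 colonic epithelial genes, 10 and 6 were in the shared class. Without colonic CD31- library 3 there were 553 called interactions, with 238 CD31+ only, 210 CD31- only, 42 opposite and 271 shared genes.

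Single libraries moved some of these counts by more than 1.5 times. The CD31- calls numbered 846, 761 and 745 without small intestinal CD31- library 1, 2 or 3, and the CD31+ calls 768 without colonic CD31+ library 3. CD31- only genes numbered 158, 147 and 137 without those same CD31- libraries. Opposite genes numbered 26, 24 and 27 without small intestinal CD31+ library 3, colonic CD31+ library 3 or small intestinal CD31- library 1. Positive interactions numbered 181, 179, 158, 154 and 160 without small intestinal CD31+ library 1, colonic CD31+ library 1, small intestinal CD31- library 2 or 3, or colonic CD31- library 1. A fit with 1 library fewer has less power to call a gene.

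**Figure D2:**
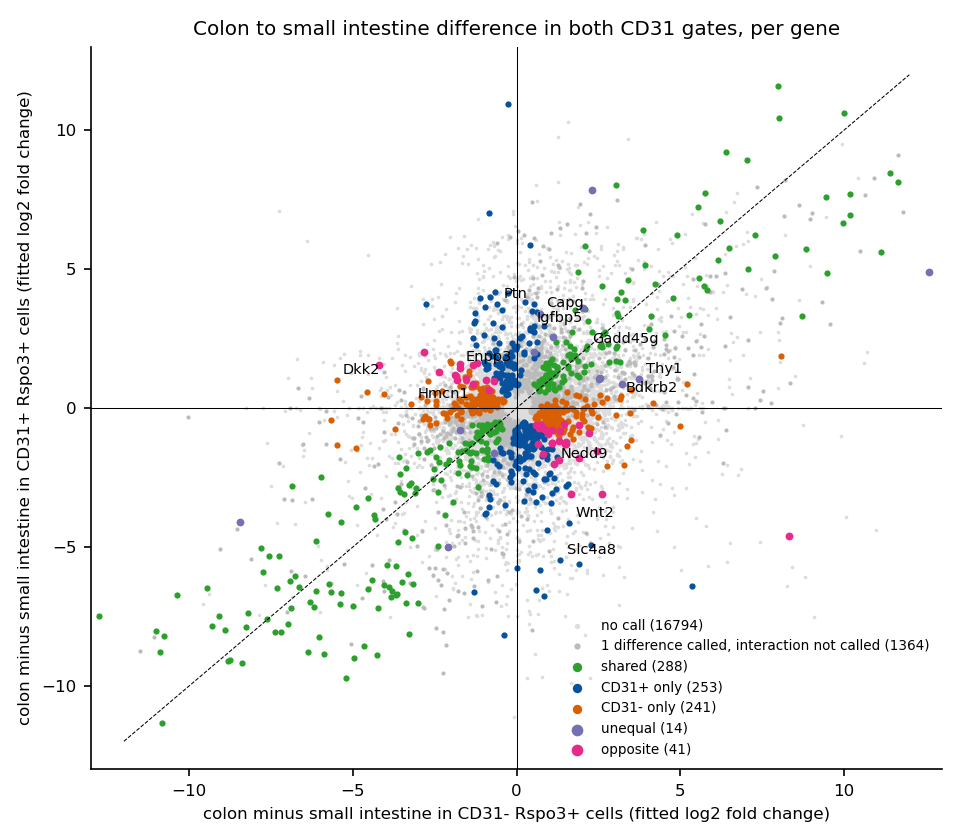
Each point is 1 gene: the CD31- difference (x axis, log2 of colon over small intestine) against the CD31+ difference (y axis), coloured by class; the dashed line marks equal differences, and the 53 genes with neither difference called and the 2 with only the smaller one called are not drawn. CD31+ only genes (253) spread along the y axis, CD31- only genes (241) along the x axis, shared genes (288) along the dashed line, and opposite genes (41) in the upper left and lower right.

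Among genes higher in the colon in CD31+ cells only, Ptn and Igfbp5 encode secreted proteins and had their highest levels in colonic CD31+ cells. Ptn (ENSMUSG00000029838, chromosome 6, 36714929 to 36810220), which encodes the heparin-binding growth factor pleiotrophin, was at 2.02, 4.60 and 3.91 CPM in small intestinal and 63.0, 36.5 and 40.6 CPM in colonic CD31+ libraries. In CD31- cells it was at 16.8, 11.9 and 21.7 CPM in the small intestine and 13.4, 9.51 and 10.5 CPM in the colon. The colonic CD31+ libraries were the highest of all 12 and did not overlap the small intestinal ones, while the CD31- groups overlapped. The CD31+ difference was 3.74 ± 0.32 (adjusted p = 1.61e-06), the CD31- difference was -0.60 ± 0.29 (95% interval -1.20 to 0.01), and the interaction was 4.34 ± 0.43 (adjusted p = 9.29e-06). Igfbp5 (ENSMUSG00000026185, chromosome 1, 72857932 to 72874884), a secreted protein that binds insulin-like growth factors, was at 175, 234 and 132 CPM in small intestinal and 1456, 1052 and 1454 CPM in colonic CD31+ libraries. The CD31- libraries held 55.1–92.8 CPM in the small intestine and 98.3–106 CPM in the colon. The colonic CD31+ group was again far above the rest, but here none of the 4 groups overlapped another. The interaction of Igfbp5 was 2.45 ± 0.39 (adjusted p = 0.00117), with a CD31+ difference of 2.87 ± 0.29 and a CD31- difference of 0.42 ± 0.27.

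Itih3, a heavy chain that stabilises hyaluronan, rose from 4.42–6.05 to 29.4–56.1 CPM in CD31+ cells and was at 8.20–12.6 and 6.39–8.72 CPM in CD31- cells (interaction 3.36 ± 0.49, adjusted p = 4.84e-04). The other genes named by the rule were higher in CD31- than in CD31+ cells of the colon or near to it. Cd34, a sialomucin of both fibroblasts and endothelium, was at 30.5, 44.6 and 32.5 CPM in small intestinal and 230.2, 142 and 118 CPM in colonic CD31+ libraries, and at 1509–1697 and 1037–1763 CPM in CD31- libraries. Its interaction was 2.27 ± 0.33 (adjusted p = 5.22e-04). Stom, encoding the membrane protein stomatin, was at 5.57–9.32 and 19.4–38.4 CPM in CD31+ cells and 47.7–57.1 and 36.1–50.3 CPM in CD31- cells (interaction 2.20 ± 0.32, adjusted p = 5.22e-04). For Prrg3, which encodes a transmembrane Gla protein, the values were 1.19–3.01, 10.2–15.2, 17.5–24.5 and 12.6–14.8 CPM (interaction 3.20 ± 0.51, adjusted p = 0.00101); the interaction did not pass on log2 TPM values (adjusted p = 0.101). Of the 104 genes of this class, 66 (63.5%) had a higher mean in colonic CD31- than in colonic CD31+ cells. The pan-fibroblast sums of the colonic CD31+ libraries were above those of the small intestinal ones, as given above; their part in these 66 genes was not tested.

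Genes lower in the colon in CD31+ cells only included a Wnt ligand, a transporter and enzymes. Wnt2 (ENSMUSG00000010797, chromosome 6, 17988940 to 18030585), a secreted Wnt ligand, was at 269.7, 238 and 325 CPM in small intestinal and 14.4, 19.4 and 13.2 CPM in colonic CD31+ libraries. In CD31- cells it was at 1.58, 4.34 and 2.92 CPM in the small intestine and 7.71, 11.7 and 7.15 CPM in the colon. In each gate the libraries of both tissues stood apart, in opposite directions. The CD31+ difference was -4.15 ± 0.51 (adjusted p = 3.74e-05) and the interaction -5.75 ± 0.70 (adjusted p = 1.02e-04), while the CD31- difference of 1.60 ± 0.49 did not pass (adjusted p = 0.0556). It passed in 5 of the alternative fits, among them DESeq2 (adjusted p = 0.00956), which would place Wnt2 with the opposite genes. It was the 1 gene called in the interaction of the 11 Wnt ligands tested.

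Tiparp (ENSMUSG00000034640, chromosome 3, 65528410 to 65555518), an ADP-ribosyltransferase induced through the aryl hydrocarbon receptor, was at 326, 427 and 577 CPM in small intestinal and 107, 69.4 and 90.3 CPM in colonic CD31+ libraries. In CD31- libraries it was at 218, 228 and 164 CPM and 392, 260.0 and 218 CPM. The CD31+ groups were apart, the CD31- groups overlapped, and the interaction was -2.83 ± 0.35 (adjusted p = 1.02e-04). Slc4a8 (ENSMUSG00000023032, chromosome 15, 100761747 to 100823968), a sodium-driven bicarbonate transporter, was at 11.7–12.3 CPM in small intestinal CD31+ libraries and 0.481, 0.256 and 0.0542 CPM in colonic ones. The CD31- libraries held 0.565–0.912 and 1.44–2.21 CPM. Its CD31+ difference was -5.48 ± 0.60 (-6.25 without colonic CD31+ library 1) and its interaction -6.83 ± 0.77 (-7.61 without colonic CD31+ library 1), with an adjusted p of 4.19e-05. Its CD31- difference of 1.34, not called here, passed with DESeq2 (adjusted p = 0.0459).

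The remaining 3 genes of this set fell in every colonic CD31+ library. Lhfpl2, encoding a tetraspan membrane protein, went from 201–233 to 55.0–67.5 CPM (interaction -2.02 ± 0.23, adjusted p = 4.19e-05). The imprinted hydrolase gene Mest went from 129–176 to 22.6–30.0 CPM (interaction -3.44, adjusted p = 1.32e-04), and the F-box gene Fbxo33 from 69.5–77.6 to 25.6–35.1 CPM (interaction -1.79, adjusted p = 1.62e-04). The CD31- differences of these last genes were 0.89 (adjusted p = 0.0879) and 0.49 (adjusted p = 0.0835). The difference of Mest passed without colonic CD31- library 3 (adjusted p = 0.0219) and with DESeq2 (adjusted p = 0.0322), and that of Fbxo33 without colonic CD31- library 3 (adjusted p = 0.0218), with RLE scaling (adjusted p = 0.0434), with DESeq2 (adjusted p = 0.0185) and with a minimum of 5 CPM (adjusted p = 0.0301). In those fits the gene would be placed as opposite. In this direction, 130 of the 149 genes had their highest mean of the small intestine in CD31+ cells, and 19 (12.8%) had it in CD31- cells.

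Genes higher in the colon in CD31- cells only included a glucose transporter and a peptide receptor. Slc2a1 (ENSMUSG00000028645, chromosome 4, 119108711 to 119137983) encodes the facilitative glucose transporter GLUT1. It was at 30.6, 37.7 and 39.5 CPM in small intestinal and 24.5, 26.1 and 28.1 CPM in colonic CD31+ libraries, and at 12.5, 16.7 and 12.7 CPM and 66.7, 39.8 and 66.7 CPM in CD31- libraries. The CD31- groups were far apart, with the small intestinal ones the lowest of the 12, and the colonic CD31- libraries rose above both CD31+ groups. The CD31- difference was 2.05 ± 0.19 (adjusted p = 2.12e-06), the CD31+ difference -0.45 ± 0.18 (adjusted p = 0.177) and the interaction -2.50 ± 0.26 (adjusted p = 1.71e-05). Bdkrb2 (ENSMUSG00000021070, chromosome 12, 105563226 to 105595237), the constitutive bradykinin receptor, was at 3.31, 6.87 and 3.50 CPM in small intestinal and 29.3, 39.0 and 53.1 CPM in colonic CD31- libraries. CD31+ libraries held 8.18–13.3 and 11–17.8 CPM and overlapped. The interaction was -2.82 ± 0.39 (adjusted p = 3.34e-04).

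Opa3, which encodes a mitochondrial membrane protein, was at 29.3–33.5 CPM in CD31- libraries of the small intestine and 60.1–74.0 CPM in those of the colon, against 52.3–57.4 and 37.5–45.3 CPM in CD31+ libraries (interaction -1.50 ± 0.18, adjusted p = 1.02e-04); its CD31+ difference of -0.40 passed with DESeq2 (adjusted p = 0.0459). Ddit3, which encodes the stress-response transcription factor CHOP, went from 63.1–73.8 to 137–153 CPM in CD31- cells and was at 50.1–62.1 and 42.5–52.4 CPM in CD31+ cells (interaction -1.29 ± 0.19, adjusted p = 5.57e-04). The MHC class I genes H2-Q6 and H2-Q5 were higher in colonic CD31- cells, with H2-Q6 at 57.0–104 CPM in the small intestine against 391–419.9 CPM and H2-Q5 at 6.61–12.7 against 35.6–44.6 CPM. Their interactions were -2.49 ± 0.32 and -2.06 ± 0.29 (adjusted p = 1.62e-04 and 3.55e-04). They are near-identical copies between which reads can be split, so the level of each is uncertain. Of the 125 genes of this class, 48 (38.4%) had a higher mean in colonic CD31+ than in colonic CD31- cells.

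Genes lower in the colon in CD31- cells only included matrix, channel and signalling genes. Hmcn1 (ENSMUSG00000066842, chromosome 1, 150562524 to 150993435), which encodes the large extracellular matrix protein hemicentin 1, was at 21, 16.8 and 15.1 CPM in small intestinal and 1.85, 1.77 and 2.02 CPM in colonic CD31- libraries. In CD31+ libraries it was at 47.9, 42.6 and 34.7 CPM and 45.7, 49.9 and 42.9 CPM. The colonic CD31- libraries were the lowest of the 12 and the CD31+ groups overlapped. The CD31- difference was -3.22 ± 0.23 (adjusted p = 8.55e-08), the CD31+ difference 0.14 ± 0.20 (95% interval -0.27 to 0.55), and the interaction 3.37 ± 0.30 (adjusted p = 4.65e-06). Dkk2 (ENSMUSG00000028031, chromosome 3, 132085292 to 132180304), which encodes a secreted modulator of Wnt signalling, was at 172, 137 and 156 CPM in small intestinal and 4.97, 3.08 and 2.34 CPM in colonic CD31- libraries. The CD31+ libraries held 0.597, 3.80 and 4.50 CPM and 10.3, 3.58 and 3.36 CPM. Only the small intestinal CD31- group was high, and its interaction was 6.51 ± 0.86 (5.78 without colonic CD31+ library 1), with an adjusted p of 1.74e-04.

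Kcnn3, a calcium-activated potassium channel gene, fell from 125–158 to 20.6–22.3 CPM in CD31- cells and was at 169.9–243 and 133–183 CPM in CD31+ cells (interaction 2.26 ± 0.29, adjusted p = 1.52e-04). Rgs5, a regulator of G protein signalling and a pericyte marker, fell from 231–280.2 to 23.7–40.2 CPM in CD31- cells and was at 9.13–21.4 and 14.5–25.3 CPM in CD31+ cells (interaction 3.33 ± 0.43, adjusted p = 1.58e-04). The sum of 10 pericyte genes, Rgs5 included, was 130 to 138 TPM in small intestinal and 43.1 to 47.0 TPM in colonic CD31- libraries. In CD31+ libraries it was 234 to 280 TPM and 91.1 to 109 TPM in the same order. Of these 10, 2 were higher and 2 lower in colonic CD31- cells, against 3.62% and 3.4% of all genes, with a median of 0.07. The part of the pericyte sum in the Rgs5 difference was not tested. Lifr, the receptor subunit for leukaemia inhibitory factor, fell from 70.4–90.0 to 20.2–21.6 CPM in CD31- cells and was at 22.5–28.6 and 26.9–31.3 CPM in CD31+ cells (interaction 2.09 ± 0.30, adjusted p = 4.37e-04). Zfp950, a zinc finger gene, had a CD31- difference of -1.06 and an interaction of 1.51 (adjusted p = 3.59e-04), which did not pass on log2 TPM values (adjusted p = 0.068); its CD31+ difference of 0.45 passed with DESeq2 (adjusted p = 0.0421). Of the 116 genes, 20 (17.2%) had a higher mean in small intestinal CD31+ than in small intestinal CD31- cells.

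**Figure D3:**
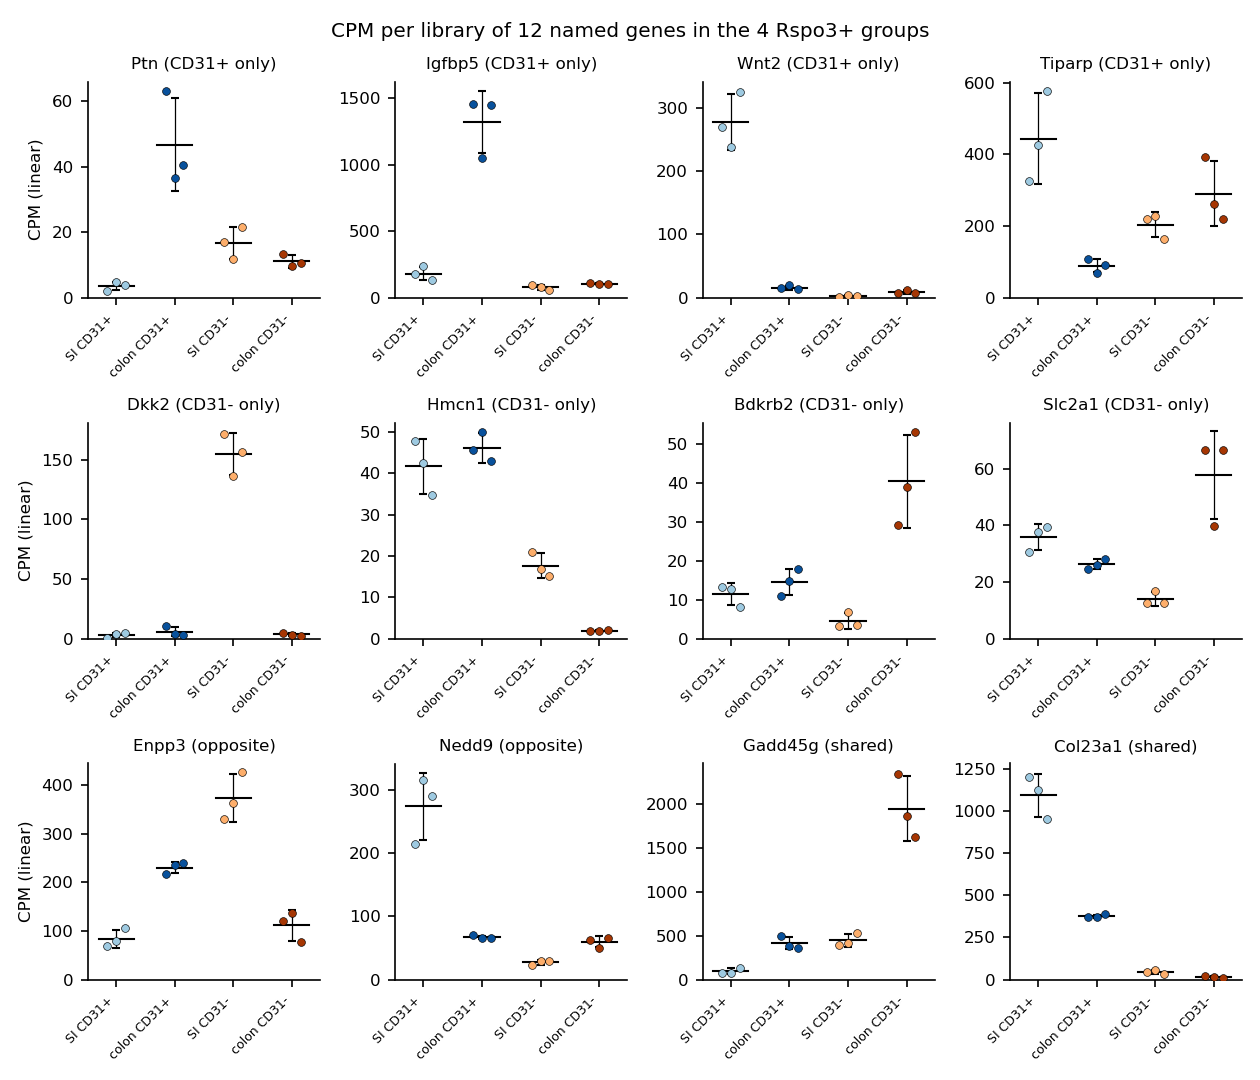
CPM (linear axis) of 12 genes in each of the 12 Rspo3+ libraries, 1 panel per gene; points are libraries, with the mean and SD of each group. Ptn, Igfbp5, Wnt2 and Tiparp differ between tissues mainly in CD31+ cells, Dkk2, Hmcn1, Bdkrb2 and Slc2a1 in CD31- cells, Enpp3 and Nedd9 in opposite directions, and Gadd45g and Col23a1 in both gates alike.

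Genes with opposite tissue differences were 14 that were higher in colonic CD31+ but lower in colonic CD31- cells and 27 of the reverse kind. Enpp3 (ENSMUSG00000019989, chromosome 10, 24772406 to 24842823), an ectoenzyme that cleaves extracellular nucleotides, was at 69.4, 78.4 and 105 CPM in small intestinal and 217, 236 and 239 CPM in colonic CD31+ libraries. In CD31- libraries the values were 330.0, 363 and 427 CPM and 121, 137 and 76.8 CPM. The groups did not overlap in either gate, and the order of the gates was exchanged between tissues. The CD31+ difference was 1.45 ± 0.22, the CD31- difference -1.74 ± 0.22 and the interaction 3.20 ± 0.32 (adjusted p = 3.14e-04, 7.79e-05 and 9.29e-06). Slco2b1, an organic anion transporter gene, changed in the same manner, from 142–215 to 476–544 CPM in CD31+ cells and from 341–513 to 89.4–166 CPM in CD31- cells (interaction 3.30 ± 0.33, adjusted p = 1.19e-05). Mertk (ENSMUSG00000014361, chromosome 2, 128698956 to 128802894), a receptor tyrosine kinase for the uptake of dying cells, was at 11.6–18.9 and 26.5–48.7 CPM in CD31+ cells and 43.8–59.6 and 6.93–12.5 CPM in CD31- cells. Its interaction was 3.66 ± 0.42 (adjusted p = 4.55e-05) and its CD31- difference -2.36. The CD31+ difference of 1.3 (adjusted p = 0.00887) did not pass without small intestinal CD31+ library 3 or colonic CD31+ library 3 (adjusted p = 0.0529 and 0.0579).

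Nedd9 (ENSMUSG00000021365, chromosome 13, 41309581 to 41487362), an adhesion scaffold gene, was at 215, 316 and 291 CPM in small intestinal and 69.9, 65.8 and 65.4 CPM in colonic CD31+ libraries. In CD31- libraries it was at 22.8, 28.8 and 29.2 CPM and 63.1, 49.9 and 65.7 CPM. The small intestinal gates were about an order of magnitude apart, while the colonic ones overlapped. The interaction was -3.17 ± 0.31 (adjusted p = 9.29e-06), from a CD31+ difference of -2.03 and a CD31- difference of 1.14. Plcb4, a phospholipase C gene, went from 117–138 to 64.4–74.8 CPM in CD31+ cells and from 3.45–6.44 to 18.8–30.6 CPM in CD31- cells (interaction -3.11 ± 0.29, adjusted p = 9.29e-06). Tle4 (ENSMUSG00000024642, chromosome 19, 14448150 to 14598051), a corepressor of Wnt and Notch target genes, went from 63.2–67.8 to 36.5–50.5 CPM and from 7.84–10.5 to 32.0–37.2 CPM. It had one of the smallest p-values of the interaction, -2.52 ± 0.21 (adjusted p = 2.65e-06), and its CD31- difference was 1.90. Its CD31+ difference of -0.63 (adjusted p = 0.0107) did not pass without colonic CD31+ library 2 or 3 (adjusted p = 0.063 and 0.0579), with no filter on low counts (adjusted p = 0.0712) and with the 12 Rspo3+ libraries alone (adjusted p = 0.0623).

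Of the 14 genes with unequal differences, 3 were named by the rule. Capg (ENSMUSG00000056737, chromosome 6, 72544391 to 72562983), an actin-capping protein gene, was at 8.54, 11.8 and 10.7 CPM in small intestinal and 131, 106 and 89.6 CPM in colonic CD31+ libraries. In CD31- libraries it was at 82.0–113 and 127–172 CPM. The CD31+ difference was 3.40, the interaction 2.70 (adjusted p = 9.29e-06), and the CD31- difference 0.70 (adjusted p = 0.0206), which did not pass without small intestinal CD31- library 1 or 2 or colonic CD31- library 1 or 2 (adjusted p = 0.102, 0.0857, 0.0599 and 0.0559) or on log2 TPM values (adjusted p = 0.0634). The surface glycoprotein gene Thy1 rose further in CD31- cells, from 0.680–0.848 to 7.41–12.7 CPM, than in CD31+ cells, from 40.3–58.8 to 79.5–126 CPM. Its CD31- difference was 3.75 and its interaction -2.70 (adjusted p = 1.64e-04). Its CD31+ difference of 1.05 (adjusted p = 0.00893) did not pass without small intestinal CD31+ library 2 or colonic CD31+ library 3 (adjusted p = 0.0548 and 0.0707). The annexin gene Anxa3 went from 16.4–24.4 to 167–222 CPM in CD31- and from 26.0–31.9 to 41.9–67.3 CPM in CD31+ cells, with a CD31- difference of 3.22 and an interaction of -2.36 (adjusted p = 3.66e-04). The CD31+ difference of Anxa3, 0.86 (adjusted p = 0.0318), did not pass without small intestinal CD31+ library 1 or 2 or 3 or colonic CD31+ library 2 or 3 (adjusted p = 0.0582, 0.0931, 0.117, 0.166 and 0.0581) or with voom (adjusted p = 0.0577).

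In the strict shared set, Gadd45g (ENSMUSG00000021453, chromosome 13, 51846678 to 51848468), a growth arrest and stress gene, was at 76.5, 76.1 and 132 CPM in small intestinal and 491, 381 and 363 CPM in colonic CD31+ libraries. In CD31- libraries it was at 399, 413 and 534 CPM and 2351, 1869.7 and 1631 CPM. The tissues were apart in both gates, with differences of 2.12 ± 0.27 and 2.12 ± 0.27, and the interaction was 0.00 (95% interval -0.85 to 0.85). Col23a1 (ENSMUSG00000063564, chromosome 11, 51289920 to 51583918), a transmembrane collagen gene, fell in both gates, from 955–1204 to 370.4–388 CPM in CD31+ and from 32.7–54.3 to 10.4–19.9 CPM in CD31- cells. Its differences were -1.54 ± 0.24 and -1.50 ± 0.24, with an interaction of -0.04 (95% interval -0.73 to 0.66). The CD31+ level of Col23a1 exceeded the CD31- level in each tissue, so the shared difference was laid over a large difference between gates.

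Other shared genes higher in the colon were Tspo, encoding a mitochondrial translocator protein (1.00 and 1.00 in CD31+ and CD31- cells), the calcium-binding protein gene S100a6 (1.44 and 1.56), the cytoskeletal adaptor gene Pdlim4 (1.17 and 0.89) and the tetraspanin gene Tspan5 (0.87 and 0.94). Those lower included Bcl2, an inhibitor of apoptosis, at -1.03 and -1.24. The zinc finger gene Zfp512 (-0.86 and -0.79), the Myc family gene Bmyc (-1.13 and -1.16) and the phosphatase subunit gene Ppp1r10 (-1.26 and -0.93) were lower too. Of these, the CD31- difference of Zfp512 did not pass without small intestinal CD31- library 3 (adjusted p = 0.0563), the CD31+ difference of Bmyc did not pass without small intestinal CD31+ library 3 (adjusted p = 0.0502), and the CD31- difference of Ppp1r10 did not pass without small intestinal CD31- library 2 or colonic CD31- library 3 (adjusted p = 0.0504 and 0.0587).

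For the gene lists that follow, the numbers in parentheses after a count are its lowest and highest over the 12 fits that each left out 1 library. The shares of all genes tested that were called, given above and repeated where they bear on a list, are so small that a list of 15 genes would hold fewer than 1 called interaction at those shares, and a count of 0 or 1 in a short list is no result about it.

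Hox genes of the posterior paralogue groups, which mark the hindgut, were mostly higher in the colon in CD31- cells, and 4 of them also in CD31+ cells. Of 12 such genes tested, 4 (3–5) were higher in CD31+ cells, against 2.83% of all genes, and the other 8 did not pass there. In CD31- cells 9 (7–10) were higher, against 3.62%. None was called lower, and 3 (2–4) interactions were negative, against 1.73% of all genes. Medians are left out because several genes had no count in the small intestine. Hoxa11 had no count in any small intestinal library of either gate, and was at 1.44, 2.05 and 2.38 CPM in colonic CD31+ and 25.3, 26.0 and 15.7 CPM in colonic CD31- libraries. With the group's floor set at 3 counts, it was at least 30.6-fold higher in colonic CD31+ and at least 467-fold higher in colonic CD31- cells. Hoxa13 had no small intestinal count either, and was at least 21.1-fold and at least 106-fold higher. Every colonic library of both gates held these genes. Hoxa10 was at 0, 0.429 and 0 CPM in small intestinal and 4.87, 4.48 and 4.87 CPM in colonic CD31+ libraries, and in CD31- cells it rose from no count to 40.1, 54.3 and 34.4 CPM, at least 920-fold. The interaction of Hoxa10 was called (adjusted p = 0.0118) but did not pass without small intestinal CD31+ library 2 (adjusted p = 1.000), the 1 library of that group with Hoxa10 counts.

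Hoxd8, Hoxd9 and Hoxd10 were already expressed in small intestinal CD31+ cells. Hoxd9 was at 22.9, 31.4 and 22.8 CPM in small intestinal and 40.9, 58.8 and 39.6 CPM in colonic CD31+ libraries, and at 0, 0.429 and 0.243 CPM and 7.51, 9.12 and 7.52 CPM in CD31- libraries. Every small intestinal CD31+ library lay above every colonic CD31- library. The CD31+ difference of 0.85 ± 0.53 did not pass (adjusted p = 0.424), although it did with DESeq2 (adjusted p = 0.0232), with voom (adjusted p = 0.0276) and on log2 TPM values (adjusted p = 0.0476), the CD31- difference was 5.20 ± 0.70 (4.56 without small intestinal CD31- library 1 and 6.08 without small intestinal CD31- library 2), and the interaction was -4.34 ± 0.86 (-3.71 without small intestinal CD31- library 1 and -5.24 without small intestinal CD31- library 2), with an adjusted p of 0.00669. Hoxd10 was at 1.74, 6.93 and 8.89 CPM and 19.7, 21.9 and 22.0 CPM in CD31+ libraries, and in CD31- libraries it went from 1 count over the small intestinal group to 5.85, 7.48 and 5.0 CPM, a ratio of 392 (95% counting interval 69.7 to 15536). Its interaction (adjusted p = 0.0387) was lost with any 1 library left out except small intestinal CD31+ library 1 and colonic CD31- library 3 (adjusted p = 0.0555 to 0.118), with voom (adjusted p = 0.15) and on log2 TPM values (adjusted p = 0.75). Hoxd8, of the more anterior groups, had the same order, at 67.6–78.5 and 82.3–89.5 CPM in CD31+ and 1.65–3.47 and 13.2–17.1 CPM in CD31- cells (CD31- difference 2.61, interaction -2.41 ± 0.37, adjusted p = 6.77e-04).

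Hox genes of the anterior groups were more often lower than higher in colonic CD31- cells. Of 21 tested, 8 (8–9) were lower and 3 (1–3) higher in colonic CD31- cells, against 3.4% and 3.62% of all genes. In colonic CD31+ cells 3 (2–3) were lower and none higher, against 3.52% and 2.83%. A minimum of 5 CPM left 2 lower in CD31- cells. The interaction was called for 3 (1–4) positive and 1 (1–1) negative genes, against 1.44% and 1.73% of all genes, with a list median of 0.81; without colonic CD31+ library 3 it was called for 1 positive gene. Hoxa5 was at 35.2, 39.8 and 46.5 CPM in small intestinal and 1.37, 3.08 and 4.74 CPM in colonic CD31- libraries, and at 18.1, 10.7 and 18 CPM and 10.2, 10.9 and 6.77 CPM in CD31+ libraries. The CD31- groups were apart and the CD31+ groups overlapped. Its CD31- difference was -3.70 ± 0.35 (adjusted p = 2.12e-06) and its interaction 2.96 ± 0.45 (adjusted p = 6.90e-04). Hoxc4 fell in both gates: no count was found in colonic CD31+ cells, at least 15.6-fold less than the 0.367–1.78 CPM of small intestinal ones, and the CD31- level went from 12.0–15.3 to 0.390–0.443 CPM.

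**Figure D4:**
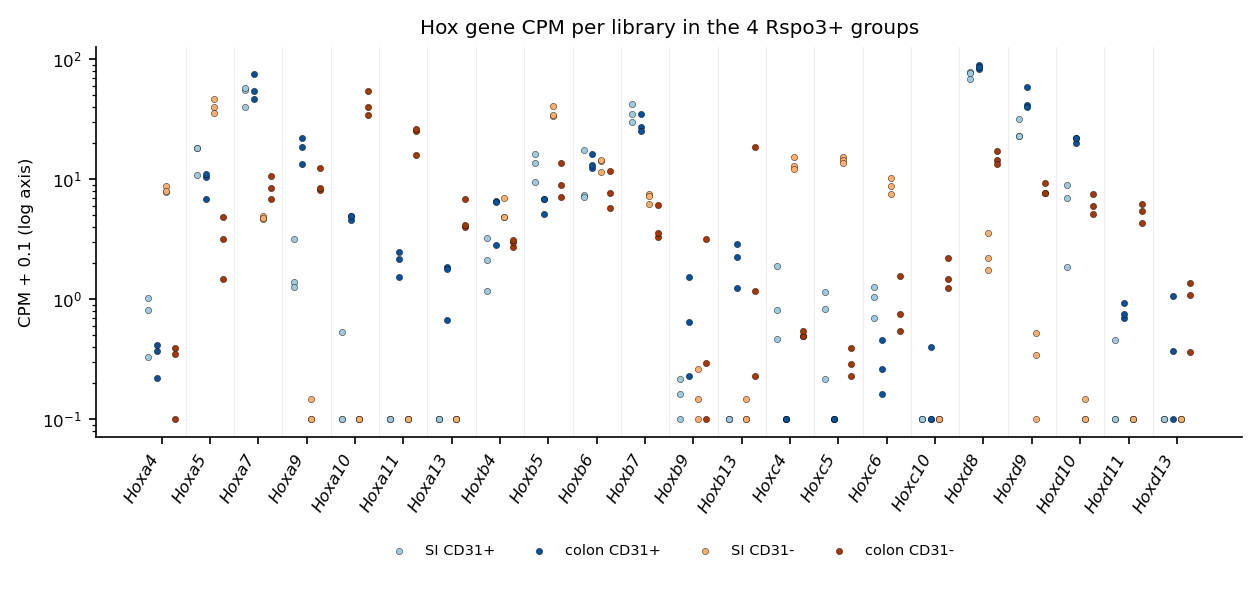
CPM plus 0.1 (log axis) of 22 Hox genes in the libraries of the 4 Rspo3+ groups; each point is 1 library. Hoxa10, Hoxa11 and Hoxa13 rise from at or near 0 in the colonic groups, Hoxd8 and Hoxd9 are high in CD31+ cells of both tissues, and Hoxa5 is lowest in colonic CD31- cells.

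Neither Rspo3 nor Grem1 had a called interaction. Rspo3, the gene whose reporter defined the sort, was at 303–449.9 and 353–409 CPM in small intestinal and colonic CD31+ libraries and 273–332 and 139–267 CPM in CD31- libraries. Its interaction was 0.50 ± 0.31 (95% interval -0.14 to 1.14) and was not called, nor was either tissue difference. Grem1, a BMP antagonist of crypt-base fibroblasts, was at 749–972 and 569–999.9 CPM in CD31- and 5.69–13.4 and 9.42–36.7 CPM in CD31+ libraries, with an interaction of 1.24 ± 0.91 (95% interval -0.65 to 3.14). The highest Grem1 value among CD31+ libraries was that of colonic library 1, which also had the highest pan-fibroblast sum of that gate. Against 3.17% of all genes, the interaction was called for none of 7 R-spondins and R-spondin receptors, 1 (1–2) (Wnt2) of 11 Wnt ligands, 1 (1–1) (Dkk2) of 10 secreted Wnt antagonists, 1 (0–1) (Bmp1) of 13 BMP and GDF ligands and 1 (0–1) (Nbl1) of 12 secreted BMP antagonists. Bmp1, in spite of its name, encodes a protease that processes procollagens and BMP antagonists; its interaction of 1.31 (adjusted p = 0.0432) did not pass with any 1 library left out except small intestinal CD31+ library 2 and colonic CD31- library 1 (adjusted p = 0.0502 to 0.101). That of Nbl1, 1.80 (adjusted p = 0.0279), did not pass with any 1 library left out except small intestinal CD31+ library 3, colonic CD31+ library 1, small intestinal CD31- library 1 and colonic CD31- library 2 (adjusted p = 0.0547 to 0.0906). Sfrp4, a decoy receptor for Wnt proteins named after its values were seen, was shared and higher in the colon (4.46 and 4.22). Fstl1, a follistatin-like BMP antagonist, was shared too (1.46 and 0.80); its CD31- difference did not pass on log2 TPM values (adjusted p = 0.0837).

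Several retinoic acid genes were lower in the colon in both gates. Aldh1a enzymes act in the conversion of vitamin A into retinoic acid. Retinoic acid is broken down by Cyp26 enzymes and acts through receptors such as that encoded by Rarb. Of 13 genes tested, 6 (4–6) were lower and 1 (1–2) higher in colonic CD31+ cells, against 3.52% and 2.83% of all genes, and 5 (2–5) were lower and 1 (0–1) higher in colonic CD31- cells, against 3.4% and 3.62%. The 5 lower in CD31- cells were 2 without small intestinal CD31- library 3 and 3 without colonic CD31- library 3. In the shared class were 5 genes, and the median interaction was 0.23. Aldh1a2 (-2.20 and -2.54 in CD31+ and CD31- cells), Aldh1a3 (-2.34 and -1.78) and the retinaldehyde reductase gene Dhrs3 (-1.61 and -1.24) fell in both; these and Rarb were named after their values were seen. Rarb fell by more in CD31- cells, -3.59 against -1.77, but its interaction of 1.81 ± 0.66 was not called (adjusted p = 0.162). The stretch of its promoter that holds a direct repeat of the half-site GTTCA spaced as in retinoic acid receptor elements is printed because Rarb has such a match and fell in both gates.
Rarb, GRCm38 chr14:16575477-16575596, minus strand: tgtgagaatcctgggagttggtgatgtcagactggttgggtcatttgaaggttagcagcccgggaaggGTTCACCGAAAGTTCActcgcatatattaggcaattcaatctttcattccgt
Capitals mark the match to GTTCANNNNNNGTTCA, which was searched on both strands of the 250 bases before each RefSeq transcription start. It was found in 22 of 32851 such windows (0.06697%), and in 2 of the 11 retinoic acid genes with a window, Rarb and Cyp26a1. A match is a run of letters and not a measured binding site.

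The retinoic acid genes Rbp4 and Cyp26b1 were called in the interaction. Rbp4, the retinol carrier, was at 0.459, 0.368 and 0.711 CPM in small intestinal and 5.59, 6.84 and 8.18 CPM in colonic CD31+ libraries, and at 12.9–22.2 and 19.6–23.6 CPM in CD31- libraries. Its interaction was 3.54 ± 0.69 (adjusted p = 0.00646), which did not pass with voom (adjusted p = 0.188), nor did its CD31+ difference of 3.81 with voom (adjusted p = 0.0807). The level in colonic CD31+ cells stayed below every CD31- library. As given above, the pan-fibroblast sums of the CD31+ libraries were larger in the colon, and their part in the Rbp4 difference was not tested. Cyp26b1, a retinoic acid hydroxylase gene, was at 136, 119.7 and 163 CPM in small intestinal and 3.07, 0.128 and 0.975 CPM in colonic CD31+ libraries. CD31- libraries held 1.17–4.18 and 0.394–1.45 CPM. The small intestinal CD31+ group stood far above all others, with a CD31+ difference of -6.64 ± 0.99 (adjusted p = 2.35e-04; -7.90 without colonic CD31+ library 1). The interaction of -5.35 (-6.63 without colonic CD31+ library 1 and -6.06 without small intestinal CD31- library 3) had an adjusted p of 0.0297 and did not pass with any 1 library left out except small intestinal CD31+ libraries 1 and 2, colonic CD31+ library 1, small intestinal CD31- library 3 and colonic CD31- library 2 (adjusted p = 0.0528 to 0.135) or with voom (adjusted p = 0.125).

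The angiogenic ligands Pgf and Angpt2 were lower in colonic CD31+ cells. Of 15 VEGF and angiopoietin ligands and receptors, the interaction was called for 1 (0–2) positive and 2 (2–4) negative genes, against 1.44% and 1.73% of all genes, with a median of 0.02. DESeq2, voom, RLE scaling, no filter and a minimum of 5 CPM each gave 4 negative ones. Pgf, the VEGF family ligand placental growth factor, was at 139, 169.9 and 258 CPM in small intestinal and 63.9, 82.3 and 86.6 CPM in colonic CD31+ libraries. CD31- cells held 17.0, 17.5 and 17.4 CPM and 52.9, 54.0 and 41.5 CPM. The groups were apart in both gates and moved in opposite directions, -1.28 ± 0.26 and 1.51 ± 0.26, with an interaction of -2.79 ± 0.37 (adjusted p = 1.64e-04). Angpt2, the Tie2 ligand released by activated endothelium, fell from 203–228 to 63.3–66.9 CPM in CD31+ cells, and was at 1.90–5.52 and 3.51–4.87 CPM in CD31- cells. Its CD31+ difference was -1.74 and its interaction -2.14 ± 0.42 (adjusted p = 0.00669; -2.80 without small intestinal CD31- library 2), and the CD31- difference of 0.40 passed without small intestinal CD31- library 2 (adjusted p = 0.0351).

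The called interactions of collagen genes were positive. Of 36 tested, 3 (3–3) were positive and none negative, against 1.44% and 1.73% of all genes. In colonic CD31+ cells 7 (3–7) were higher and 2 (2–2) lower, against 2.83% and 3.52% of all genes, and the 7 higher were 3 without small intestinal CD31+ library 2 and 2 with voom or on log2 TPM values. In colonic CD31- cells 1 (0–1) was higher and 4 (4–4) lower, against 3.62% and 3.4%, and the median interaction was 1.20. Col18a1, whose product carries endostatin, was at 445, 472 and 308 CPM in small intestinal and 1060.1, 941 and 1358 CPM in colonic CD31+ libraries. In CD31- libraries it was at 212–340.3 and 139.8–176 CPM. The colonic CD31+ group was the highest, and the interaction was 2.32 ± 0.43 (adjusted p = 0.00447). Its CD31- difference of -0.86 passed with the 12 Rspo3+ libraries alone (adjusted p = 0.0387). Col13a1, a transmembrane collagen gene, fell in CD31- cells from 16.9–17.9 to 2.05–2.97 CPM and rose in CD31+ cells from 0.918–3.91 to 5.11–9.44 CPM. Its interaction was 4.86 ± 0.63 (5.75 without small intestinal CD31+ library 3; adjusted p = 1.62e-04) and its CD31- difference -2.84. Its CD31+ difference of 2.02 (adjusted p = 0.00938) did not pass without small intestinal CD31+ library 1 or 2 (adjusted p = 0.0667 and 0.0603) or on log2 TPM values (adjusted p = 0.0885), and was 2.91 without small intestinal CD31+ library 3. Col15a1, a basement membrane collagen gene, fell from 69.1–88.8 to 17.9–22.3 CPM in CD31- cells and was at 0.711–3.40 and 4.93–5.63 CPM in CD31+ cells. Its interaction was 3.07 ± 0.47 (adjusted p = 7.42e-04) and its CD31- difference -1.88. Its CD31+ difference of 1.19 (adjusted p = 0.046) did not pass without small intestinal CD31+ library 2 or 3 or colonic CD31+ library 1 or 2 or 3 or small intestinal CD31- library 1 (adjusted p = 0.0965, 0.131, 0.0772, 0.108, 0.102 and 0.0527), nor with voom (adjusted p = 0.354), with the 12 Rspo3+ libraries alone (adjusted p = 0.0635) and on log2 TPM values (adjusted p = 0.306). The pan-fibroblast list, which holds several abundant collagens, had a median interaction of 1.17 with none of 14 called; the part of fibroblast RNA in the CD31+ libraries was not tested.

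A contractile gene and a mechanosensor gene fell in CD31- cells. Mylk, the myosin light chain kinase of smooth muscle, went from 197–253 to 49.0–61.0 CPM in CD31- cells and was at 60.3–87.5 and 67.3–85.5 CPM in CD31+ cells (interaction 1.92 ± 0.28, adjusted p = 5.22e-04). The sum of 12 smooth muscle genes, Mylk included, was 978 to 1379 TPM in small intestinal and 386 to 679 TPM in colonic CD31- libraries. Of these 12, 1 was higher and 4 lower in colonic CD31- cells, against 3.62% and 3.4% of all genes. The part of the smooth muscle sum in the Mylk difference was not tested. The gene of the mechanically gated channel Piezo2 fell from 62.1–82.0 to 17.8–25.1 CPM in CD31- cells and was at 33.5–59.5 and 82.9–90.1 CPM in CD31+ cells, where the difference of 0.81 did not pass (adjusted p = 0.0693). It passed with DESeq2 (adjusted p = 0.0213), with voom (adjusted p = 0.0144), with a minimum of 5 CPM (adjusted p = 0.0463) and with the 12 Rspo3+ libraries alone (adjusted p = 0.0219), which would place Piezo2 with the opposite genes. Its interaction was 2.54 ± 0.37 (adjusted p = 4.86e-04). Mcam, an adhesion molecule of pericytes and endothelium, rose from 7.82–13.5 to 45.6–48.9 CPM in CD31+ cells. Its interaction of 2.19 ± 0.49 (adjusted p = 0.0168) did not pass without small intestinal CD31- library 1 (adjusted p = 0.0527) or with voom (adjusted p = 0.0821).

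Genes of vascular lipid uptake and transport were called in both directions. Of 20 tested (median interaction 0.07), 3 (1–3) were higher and 4 (3–5) lower in colonic CD31+ cells, against 2.83% and 3.52% of all genes. In colonic CD31- cells 2 (0–4) were higher and 2 (1–2) lower, against 3.62% and 3.4%. The interaction was called for 1 (0–1) positive and 3 (2–4) negative genes, against 1.44% and 1.73% of all genes. Lpl, the lipase that frees fatty acids from circulating triglyceride, was at 160.2, 175 and 195 CPM in small intestinal and 33.2, 62.5 and 47.5 CPM in colonic CD31+ libraries. The CD31- values were 74.6, 64.4 and 68.3 CPM and 179, 186 and 139 CPM. Both gates were apart, in opposite directions, and the interaction was -3.17 ± 0.46 (adjusted p = 4.88e-04) with a CD31+ difference of -1.89. The CD31- difference of 1.28 (adjusted p = 0.0195) did not pass without small intestinal CD31- library 1 or 2 or 3 (adjusted p = 0.0521, 0.0683 and 0.0566). Fabp4, a fatty acid carrier of capillary endothelium, fell from 427–599 to 74.8–119 CPM in CD31+ cells, and was at 12.2–20.1 CPM in small intestinal and 15.2, 11.3 and 39.8 CPM in colonic CD31- libraries. Its CD31+ difference was -2.36 ± 0.41 and its interaction -2.93 ± 0.57 (adjusted p = 0.00616; -2.19 without colonic CD31- library 3).

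Chemokine genes were called in both directions. Of 21 tested, 3 (1–2) interactions were positive and 4 (1–4) negative, against 1.44% and 1.73% of all genes, with a median of -0.87. The negative ones were down to 1 without small intestinal CD31+ library 2 or small intestinal CD31- library 3. Ccl21a, the lymphatic chemokine that guides dendritic cells and T cells, was at 8915, 8534 and 10096 CPM in small intestinal and 21737, 33239 and 25861 CPM in colonic CD31+ libraries, and at 111–274 and 81.8–137 CPM in CD31- libraries. The CD31+ groups were apart, with a difference of 1.55 ± 0.36 (adjusted p = 0.011) and an interaction of 2.42 ± 0.50 (adjusted p = 0.00968); Ccl21a has near-identical copies in the genome, so its level is uncertain. Cxcl2, a neutrophil chemokine, went from 125, 219 and 119 to 48.5, 21.9 and 21.2 CPM in CD31+ cells and was at 19.9–51.0 and 35.9–87.2 CPM in CD31- cells. Its CD31+ difference was -2.34 and its interaction -3.36 ± 0.57 (adjusted p = 0.00186); its CD31- difference of 1.02 passed without colonic CD31- library 2 (adjusted p = 0.0414). Of 2 genes named after their values were seen, Ccl25, the chemokine of small intestinal T cell homing, was shared and lower in the colon (-2.41 and -1.51). The other, Ccl8, a monocyte chemokine, was shared and higher (4.18 and 3.19). The summed small intestinal epithelial genes were also lower in colonic libraries of both gates, as given above. The part of epithelial RNA in the Ccl25 difference was not tested.

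Among 20 stromal cytokine genes the interaction was called for 2 (1–2) positive and 2 (2–3) negative ones, against 1.44% and 1.73% of all genes, with a median of -0.22. Il33, an alarmin held in the nucleus, was at 975, 1020.0 and 1622 CPM in small intestinal and 235, 213 and 204 CPM in colonic CD31+ libraries. Among CD31- libraries the values were 459, 459.6 and 524 CPM and 515, 461 and 272 CPM. It fell only where the gate was CD31+, by a difference of -2.47 ± 0.30, with an interaction of -2.26 ± 0.41 (adjusted p = 0.00314). Lif, the ligand of the receptor gene Lifr named above, fell from 48.0–67.2 to 8.94–13.6 CPM in CD31+ cells and was at 15.5–27.0 and 21.9–36.6 CPM in CD31- cells (interaction -2.68 ± 0.60, adjusted p = 0.0157). The ligand gene was in the CD31+ only class and the receptor gene in the CD31- only class. Il6 went from 1.97, 6.56 and 8.42 to 63.0, 34.2 and 32.1 CPM in CD31+ cells, and was at 286–307 and 268–598 CPM in CD31- cells. Its CD31+ difference was 2.97 ± 0.40 and its interaction 2.45 ± 0.53 (adjusted p = 0.0128). That interaction did not pass with the 12 Rspo3+ libraries alone (adjusted p = 0.0562). Every CD31- library held more Il6 than any CD31+ library. The pan-fibroblast sums of the CD31+ libraries, given above, were larger in the colon, and their part in the Il6 difference was not tested.

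Immediate early genes are switched on within minutes of a stimulus, tissue dissociation included, and many of them were lower in colonic CD31+ cells. Of 16 immediate early and heat shock genes, 8 (7–9) were lower and 0 (0–2) higher in colonic CD31+ cells, against 3.52% and 2.83% of all genes. In colonic CD31- cells 5 (1–6) were higher and 1 (0–1) lower, against 3.62% and 3.4%, and the 5 higher were 1 without small intestinal CD31- library 2 or colonic CD31- library 1. Negative interactions numbered 7 (5–8), against 1.73% of all genes, with none positive and a median of -1.13. Egr1, a zinc finger transcription factor gene, was at 8389, 10272 and 11947 CPM in small intestinal and 2181, 2739 and 2246 CPM in colonic CD31+ libraries. CD31- cells held 12417, 14184 and 15833 CPM and 11697, 9909 and 7502 CPM. Its CD31+ difference was -2.09 ± 0.22 (adjusted p = 1.06e-05) and its interaction -1.55 ± 0.31 (adjusted p = 0.00666). Fosb, a subunit of the AP-1 factor, went from 481–936 to 87.9–122 CPM in CD31+ cells and was at 410.3–634 and 263–447 CPM in CD31- cells, with an interaction of -2.13 ± 0.35 (adjusted p = 0.00138).

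Atf3, a stress-induced transcription factor gene, was at 1851, 2733 and 2188 CPM in small intestinal and 562, 888 and 686 CPM in colonic CD31+ libraries, and at 1455, 1201 and 1173 CPM and 2495, 2579 and 1612 CPM in CD31- libraries. Both gates were apart, in opposite directions, and the interaction was -2.47 ± 0.31 (adjusted p = 1.18e-04), with a CD31+ difference of -1.66. Its CD31- difference of 0.80 (adjusted p = 0.027) did not pass without small intestinal CD31- library 2 or 3 or colonic CD31- library 1 or 2 (adjusted p = 0.0769, 0.0729, 0.0624 and 0.0542), nor with the 12 Rspo3+ libraries alone (adjusted p = 0.056) and on log2 TPM values (adjusted p = 0.0643). Ier2, an immediate early gene named after its values were seen, was lower in both gates (-1.46 and -0.89). The labels give no handling or digestion times by tissue, and the part of the dissociation in these differences was not tested.

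The called interactions of interferon response genes were negative. Of 16 tested, 4 (1–5) were negative and none positive, against 1.73% and 1.44% of all genes. The negative ones, Isg15, Ifit2, Ifit3 and Irf7, came down to 1 without small intestinal CD31+ library 3, colonic CD31+ library 3 or small intestinal CD31- library 2. In colonic CD31+ cells 3 (2–3) were lower, against 3.52% of all genes, and in colonic CD31- cells 3 (3–3) higher, against 3.62%. The median interaction was -0.90. The interaction of Irf7, a transcription factor of the interferon response, was -1.01 (adjusted p = 0.0283); it did not pass without small intestinal CD31+ library 3 or colonic CD31+ library 2 or 3 or small intestinal CD31- library 1 or 2 or colonic CD31- library 1 (adjusted p = 0.0766, 0.0567, 0.0689, 0.0704, 0.0503 and 0.066) or with no filter on low counts (adjusted p = 0.0629). Interferons act through a factor that binds paired TTTC half-sites, and the promoters of Ifit3 and Isg15 are printed because both genes have such pairs and were called.
Ifit3, GRCm38 chr19:34583349-34583528, plus strand: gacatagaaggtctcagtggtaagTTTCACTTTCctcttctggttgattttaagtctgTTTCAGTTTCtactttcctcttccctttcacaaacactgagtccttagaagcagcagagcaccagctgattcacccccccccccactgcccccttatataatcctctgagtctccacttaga
Isg15, GRCm38 chr4:156200819-156200998, minus strand: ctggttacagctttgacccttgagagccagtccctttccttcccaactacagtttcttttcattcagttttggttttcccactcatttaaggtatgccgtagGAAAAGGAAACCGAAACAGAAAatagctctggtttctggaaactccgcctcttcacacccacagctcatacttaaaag
Capitals mark matches to TTTCNNTTTC, searched on both strands of the same 250-base windows. Ifit3 has 2 separate matches on its own strand, and Isg15 has 3 overlapping ones on the opposite strand. The motif was in 978 of 32851 windows (2.977%) and in 7 of the 11 interferon response genes with a window: Bst2, Gbp2, Ifit1, Ifit3, Isg15, Oas1a and Rsad2.

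Isg15, a ubiquitin-like modifier, was at 125, 140.1 and 134 CPM in small intestinal and 78.8, 92.9 and 82.4 CPM in colonic CD31+ libraries. The CD31- values were 23.4, 26.8 and 25.4 CPM and 63.1, 43.6 and 42.5 CPM. Both gates were apart, in opposite directions, with a CD31- difference of 0.98 ± 0.21 (adjusted p = 0.00604) and an interaction of -1.63 ± 0.29 (adjusted p = 0.00321), while the CD31+ difference of -0.65 ± 0.21 did not pass (adjusted p = 0.0674). It passed with DESeq2 (adjusted p = 0.034), with voom (adjusted p = 0.0487), with a minimum of 5 CPM (adjusted p = 0.0452), with the 12 Rspo3+ libraries alone (adjusted p = 0.0286) and on log2 TPM values (adjusted p = 0.0462), which would place Isg15 with the opposite genes. Ifit3, which restrains viral RNA, went from 114, 119 and 161 to 59.2, 46.4 and 38.7 CPM in CD31+ cells and was at 56.1, 46.8 and 55.1 and 105, 82.3 and 41.5 CPM in CD31- cells. Its interaction of -1.98 ± 0.47 (adjusted p = 0.022) did not pass without small intestinal CD31+ library 3 or colonic CD31+ library 3 or small intestinal CD31- library 2 or colonic CD31- library 1 (adjusted p = 0.0553, 0.0619, 0.0525 and 0.0606). Its CD31+ difference of -1.45 (adjusted p = 0.011) did not pass without small intestinal CD31+ library 3 or colonic CD31+ library 3 (adjusted p = 0.0517 and 0.0635).

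**Figure D5:**
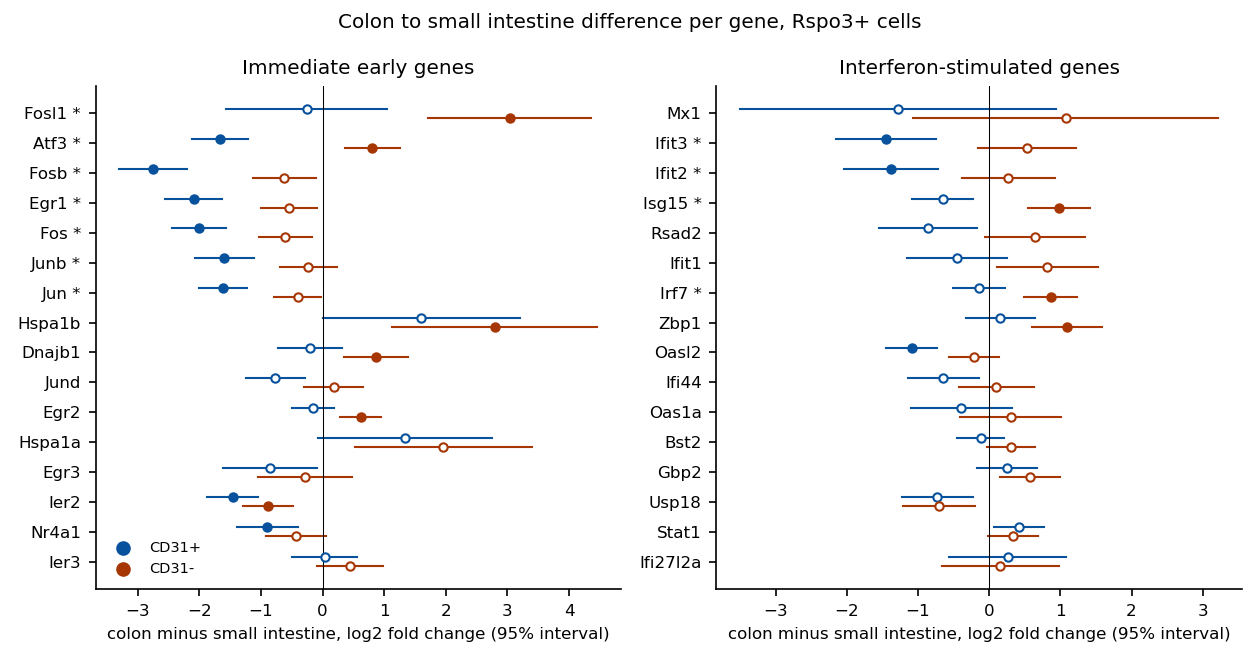
CD31+ and CD31- differences (log2 of colon over small intestine, with 95% intervals) of 16 immediate early and heat shock genes and 16 interferon response genes; filled points passed the test and a star marks a called interaction. Most CD31+ points lie below 0 and below the CD31- point of the same gene, as for Egr1, Fosb, Atf3 and Isg15.

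Several lists held no called interaction. None of 16 pan-endothelial, 14 pan-fibroblast, 19 growth factor, 13 Notch, 28 guidance, 15 prostaglandin or 15 cell cycle genes was called, and at the 3.17% of all genes each of them would hold fewer than 1. In the same order, 1, 6, 4, 5, 9, 4 and 6 had an unadjusted p under 0.05 in edgeR, and DESeq2 called 1, 2, 0, 1, 3, 2 and 0. With 1 library left out, pan-endothelial, pan-fibroblast, Notch and prostaglandin genes had up to 1 called interaction each, and guidance genes up to 2. The 7 MHC class II genes also had none. Of them 6 (0–7) were higher in colonic CD31- and 1 (0–6) in colonic CD31+ cells, against 3.62% and 2.83% of all genes. These counts rested on colonic CD31- library 3, whose MHC class II sum was 5166 TPM against 476 and 251 TPM in the other colonic CD31- libraries. Without it none was higher in CD31- cells, 6 were higher in CD31+ cells and 3 interactions were called, all positive. Voom, the 12 Rspo3+ libraries alone and log2 TPM values also gave none higher in CD31- cells. H2-Aa, a chain of the class II molecule, rested on colonic CD31- library 3: it was at 25.9, 45.3 and 39.6 CPM in small intestinal and 47.2, 28.2 and 654 CPM in colonic CD31- libraries. Its CD31- difference of 2.72 (adjusted p = 0.0298) was 3.31 without colonic CD31- library 1, 3.35 without colonic CD31- library 2 and 0.03 without colonic CD31- library 3, and did not pass without small intestinal CD31- library 1 or 2 or 3 or colonic CD31- library 3 (adjusted p = 0.12, 0.0817, 0.0929 and 0.996), nor with voom (adjusted p = 0.258), with the 12 Rspo3+ libraries alone (adjusted p = 0.108) and on log2 TPM values (adjusted p = 0.281). Its interaction turned from -0.75 to 1.94 without colonic CD31- library 3 (adjusted p = 0.0301). In CD31+ cells H2-Aa was at 72.6, 105 and 65.7 CPM in the small intestine and 247, 339 and 367 CPM in the colon, and the difference of 1.97 (adjusted p = 0.124) passed without colonic CD31- library 2 or 3 (adjusted p = 0.0476 and 5.69e-04).

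The Rspo3- libraries, which share no sample with the Rspo3+ ones, offered the same contrast. Their interaction was called for 949 genes (4.98%), 605 positive and 344 negative, their CD31+ difference for 844 (4.43%) and their CD31- difference for 3353 (17.6%). Of the 604 genes called in Rspo3+ cells, 341 (56.5%) had the same sign of interaction in Rspo3- cells, 56 (9.27%) were called with that sign and 31 were called with the opposite sign. The median interaction of the 604, taken in their own direction, was 1.76 in Rspo3+ and 0.10 in Rspo3- cells. The 604 were chosen by their Rspo3+ interaction, and that choice by itself raises the first median over the second. Calls with the same sign numbered 16 of the 253 CD31+ only and 30 of the 241 CD31- only genes. The difference between the interactions was itself called for 847 genes (4.45%), 334 positive and 513 negative, and for 268 of the 604. The choice of the 604 also raises this last count, and the same holds for single genes named by their interaction p-value.

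Single genes fell on both sides. Wnt2 had an interaction of -9.06 ± 0.83 in Rspo3- cells (adjusted p = 2.92e-06), in the direction found in Rspo3+ cells, and so had Slc2a1 (-1.77 ± 0.26, adjusted p = 4.07e-04), Hmcn1 (1.39 ± 0.28, adjusted p = 0.00563) and Hoxa5 (3.02 ± 0.44, adjusted p = 3.82e-04). Hoxd9, Mertk, Plcb4 and Thy1 also kept their sign, at -6.07, 2.72, -1.65 and -3.07 (adjusted p = 5.68e-04, 4.60e-04, 0.00183 and 3.91e-05). Ptn, by contrast, had an interaction of 0.33 ± 0.41 in Rspo3- cells (adjusted p = 0.754), and the test of the difference between the interactions was passed (adjusted p = 5.36e-04). Igfbp5 was at -0.87 ± 0.39, with the difference again called (adjusted p = 0.00168). For Tle4 (0.97 ± 0.20, adjusted p = 0.00648), Capg (-1.07 ± 0.25, adjusted p = 0.0155) and Isg15 (1.24 ± 0.29, adjusted p = 0.016) the interaction was called in Rspo3- cells with the sign reversed.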

How the data were processed

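RNA was extracted with Qiagen RNeasy kits and amplified with SMART-Seq v4, which keeps no strand information, per the labels' protocols. Per the submitters' processing notes the tools included Salmon 1.3.0 and R 4.0.1, with the mm10 genome build; no source used here gives the annotation release or the filters. The deposited table of estimated counts per gene was used for all tests, after rounding to whole numbers. The deposited table of log2(TPM + 1) values gave the marker sums and 1 alternative test. Of 54418 gene IDs, 54166 (99.5%) were found in GENCODE M21 on GRCm38, the source of gene coordinates; overlapping genes were reported where they bear on a value.

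Counts were fitted in edgeR 4.0.16 (R 4.3.3) with TMM scaling, filterByExpr (minimum count 10, minimum total 15), 1 mean per group over all 24 libraries, and the quasi-likelihood F test with Benjamini-Hochberg adjustment over 19050 genes. The common biological coefficient of variation was 0.429. Libraries of a group are numbered in column order. Library totals were 8462041 to 29214487 estimated counts, and no pair of libraries agreed within sampling noise (chi-square per degree of freedom at least 27.2). The procedure was tested on simulated data.

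Genes named from the classes had a mean of at least 10 CPM in a group. The smallest interaction p-values, with no overlap between tissues in that gate, gave 6 for each direction of the CD31+ only and CD31- only classes. Without the overlap condition they gave 3 for each opposite pattern, 3 unequal and 2 with neither difference called. For each direction of the strict shared form, 5 were taken by the larger of their 2 single-difference p-values, smallest first. Lists had no minimum level: 3 members for each list described had the smallest interaction p-values, with more members of Hox and niche factor families. The members and the 43 gene lists were chosen with earlier results of these data known. A fold against a group without counts used a floor of 3 counts over the group; counting intervals and floors cover counting error only. Alternatives were RLE scaling, DESeq2 1.42.0, limma 3.58.1 (voom, and log2 TPM values), other filters, the 12 Rspo3+ libraries alone, a threshold of 0.01 and leaving out each library. After the results were seen, the Rspo3- libraries and a condition on the level in the other gate were added.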

Additional observations from a re-analysis of the deposited data

Results flagged for a closer look

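The tissue difference differed between CD31+ and CD31- Rspo3+ cells, by a test of the interaction itself, for 604 genes, and 41 of them were called in opposite directions in the gates. The interaction differed in turn between Rspo3+ and Rspo3- cells for 847 genes, and 3497 genes had an unadjusted p under 0.05 in that test.

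Single genes whose difference was called with opposite signs in the gates, with a called interaction, were Enpp3 (interaction 3.20), Slco2b1 (3.30), Mertk (3.66), Col13a1 (4.86) and Col15a1 (3.07), which were higher in colonic CD31+ and lower in colonic CD31- cells. Nedd9 (-3.17), Plcb4 (-3.11), Tle4 (-2.52), Pgf (-2.79), Lpl (-3.17) and Atf3 (-2.47) had the reverse pattern. In every one of these 11 genes the interaction kept its call when any 1 library was left out. The opposite placement did not always hold. A single difference lost its call for Mertk, Tle4, Col13a1, Col15a1, Lpl and Atf3 in 2, 2, 2, 6, 3 and 4 of those fits.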

How the results depend on the processing

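The count of called interactions was within 1.5 times of 604 with RLE scaling (629), voom (554), no filter (516), a minimum of 5 CPM (755), the 12 Rspo3+ libraries alone (654) and log2 TPM values (732). DESeq2 called 1141 (513 positive, 628 negative), with 1816 CD31+ and 2077 CD31- differences, 440 CD31+ only, 469 CD31- only, 31 unequal, 78 opposite, 119 neither, 88 strict shared genes and 100 list members. At an adjusted p under 0.01, 229 were called (99 positive, 130 negative), with 556 CD31+ and 580 CD31- differences, 105 CD31+ only, 90 CD31- only, 118 shared, 3 unequal, 12 opposite, 19 neither, 12 strict shared genes and 29 list members, against 62 in the main test. Without a filter the strict shared genes numbered 33. The Rspo3- libraries gave 949 interactions, and the condition on the other gate left 168 CD31+ only and 173 CD31- only genes.

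With 1 library left out, the interactions numbered 416 to 658 (154 to 240 positive, 230 to 418 negative), the CD31+ differences 768 to 1356, the CD31- differences 745 to 1414, CD31+ only genes 174 to 250, CD31- only 137 to 288, shared 198 to 271, strict shared 33 to 55, unequal 7 to 13, opposite 24 to 45, neither 34 to 62 and list members 40 to 64. Each such fit has fewer samples. Apart from these totals, values kept direction and call in 7700 cases, lost the call in 313, gained it in 72 and reversed in 3. Another 96 moved in size. Under the other alternatives, the stricter threshold included, they kept both in 4823 cases, lost the call in 170, gained it in 188 and reversed in 4. There, 91 more moved in size. Those 3 reversals came without colonic CD31- library 3: over the fits with 1 library left out, the interaction of H2-Aa was -1.39 to 1.94, that of H2-Eb1 -1.46 to 2.11 and the CD31- difference of H2-Eb1 -0.092 to 3.47. With log2 TPM values the interactions of Rspo2 (2.27), Wnt9b (-1.41), Hoxc5 (2.23) and Hoxc4 (2.26) reversed; the cause was not tested. No paired analysis was possible because the columns carry no replicate number, and library numbers follow column order only. With 3 libraries a group, small changes and genes of a few counts could not be resolved, and a difference not called may exist.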

Other observations

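Among 20 blood endothelial genes, 6 (2–9) were higher and none lower in colonic CD31+ cells, against 2.83% and 3.52% of all genes. In colonic CD31- cells 2 (1–5) were higher and 1 (0–2) lower, against 3.62% and 3.4% (lowest and highest with 1 library left out in parentheses). The median CD31+ difference was 1.75 against 0.00 for all genes. The 6 higher in CD31+ cells include Cd34, also in the crypt-base fibroblast list, and Car4, also in the colonic epithelial list. The 6 were 2 without small intestinal or colonic CD31+ library 1. Of 29 transcription factors of gut mesenchyme regions, 3 were higher and none lower in colonic CD31+ cells, against the same shares of all genes. In colonic CD31- cells 4 (3–5) were higher and 4 (0–5) lower, again against the same shares, with none lower without colonic CD31- library 1. Pitx1, a homeobox gene named after its values were seen, was in the shared class, at 4.88 in CD31+ and 1.87 in CD31- cells. Its CD31- call was lost without small intestinal CD31- library 1 or 2 or 3 or colonic CD31- library 1 or 2 (adjusted p = 0.0927, 0.103, 0.079, 0.0677 and 0.0513) and on log2 TPM values (adjusted p = 0.0619), and its CD31+ call with voom (adjusted p = 0.0592). Its interaction of 3.01 (adjusted p = 0.0668) passed with DESeq2 (adjusted p = 0.009), with no filter on low counts (adjusted p = 0.0312), with a minimum of 5 CPM (adjusted p = 0.0482) and with the 12 Rspo3+ libraries alone (adjusted p = 0.00179), which would take it out of the shared class.

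Of the 53 genes with a called interaction and neither difference called, 2 were named by the rule. Slc38a2, an amino acid transporter gene, was at 620.5, 641 and 481 CPM in small intestinal and 388, 372 and 356 CPM in colonic CD31+ libraries, and at 483, 529 and 417 CPM and 937, 729 and 527 CPM in CD31- libraries. The CD31+ groups were apart and the CD31- groups overlapped slightly, with the colon lower in the former and mostly higher in the latter, and the interaction was -1.26 ± 0.28 (adjusted p = 0.0156), which did not pass on log2 TPM values (adjusted p = 0.0515). Its differences of -0.64 and 0.62 both passed with DESeq2 and with a minimum of 5 CPM, the first also without small intestinal CD31- library 2 or 3 or colonic CD31- library 1 or 2 or 3 (adjusted p = 0.0494, 0.0481, 0.0276, 0.0495 and 0.0301) and the second without colonic CD31- library 3 (adjusted p = 0.0176). Aff2, a gene of a nuclear RNA-binding protein, had 3 counts over the small intestinal and 26 over the colonic CD31+ group, a ratio of 7.95 (95% counting interval 2.44 to 41.0), and was at 5.64–14.1 and 2.09–3.08 CPM in CD31- libraries. Its interaction (adjusted p = 0.0156) did not pass without colonic CD31+ library 1 (adjusted p = 0.0765) or with voom (adjusted p = 0.0714).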
